A study of Homo sapiens with 9 samples.

Results

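The zinc finger genes of chromosome 19 were followed in MDA-MB-231, an established mesenchymal breast cancer line that lacks hormone receptors, after lentiviral delivery of 1 of 3 constructs and flow sorting of the infected cells. Members were the protein-coding genes whose symbol begins with ZNF, that lie on chromosome 19 in GENCODE 29 (GRCh38), and that had a mean of at least 1 CPM (a gene's counts scaled to the total of its library) over the 8 libraries of the deposited table. Of 249 such coding genes, 206 reached that level, out of 60715 genes in the table and 16687 genes with enough counts to be tested, and all 206 were tested. The level used the mean over all libraries, so 7 members had a mean under 1 CPM in at least 1 group. Such members reached the level through the groups where they were high, so the level itself favours a difference in them. Just inside the level were ZNF878, ZNF610 and ZNF382 with means of 1.04, 1.08 and 1.11 CPM, and just outside were ZNF132, ZNF497 and ZNF763 with 0.999, 0.799 and 0.735 CPM.

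The groups were cells given the inwardly rectifying potassium channel Kir2.1 (KCNJ2) carrying the substitution Y242F and fused to EGFP (3 libraries), cells labelled as given the voltage-gated potassium channel Kv1.5 (KCNA5) followed by a T2A peptide and his-EGFP (2 libraries, replicates 2 and 3), and cells given red fluorescent protein, RFP, as the control (3 libraries). Every group, RFP included, was infected with lentivirus. The libraries were made from poly(A) RNA with a stranded kit and read in single reads of 50 bases. The labels call the replicates separate and biological but do not say if each was transduced on its own, and p-values cover only the spread between these libraries.

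Library totals ran from 30970235 to 42753422 counts. CPM values from here on are scaled to each library's total over the genes tested, adjusted by edgeR's TMM factors. KCNJ2 had 843, 1384 and 1189 CPM in the Kir2.1 libraries and at most 0.105 CPM in the other 5. KCNA5 was without a single count in the pair of libraries labelled Kv1.5, which are therefore called by their label throughout. VIM, CD44 and AXL, high in this mesenchymal line, had at least 552 CPM in every library, whereas ESR1, PGR, CDH1, KRT5 and PTPRC had at most 0.259 CPM and CD3E, PAX2 and LIN28B had 0 counts. EPCAM, an epithelial marker, had 7.78 to 27.2 CPM. MKI67, a proliferation marker, had 672, 1001 and 954 CPM in Kir2.1 libraries, 319 and 67.7 CPM under the Kv1.5 label, and 1108, 1021 and 863 CPM in RFP libraries.

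Most C2H2 zinc finger proteins bind DNA through an array of finger repeats, each of which contacts a few bases. In the largest family the array is preceded by a KRAB domain, which binds the corepressor TRIM28 (KAP1). TRIM28 brings in the histone methyltransferase SETDB1, heterochromatin protein 1 and the NuRD complex, and many of these proteins silence transposable elements. The family grew by tandem duplication, and chromosome 19 holds its largest clusters in the human genome. One of these lies beside the centromere on the short arm and expanded in primates.

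With clusters parted by gaps over 0.5 Mb between neighbouring coding ZNF genes, 9 clusters held at least 5 members and 190 of the 206 members in all. From the short-arm end they were the clusters of 11 members at 8.5 to 9.8 Mb (ZNF414 to ZNF846), 20 at 11.5 to 12.6 Mb (ZNF653 to ZNF791) and 27 at 19.7 to 24.1 Mb (ZNF101 to ZNF254), the last being the pericentromeric cluster. On the long arm followed 5 members at 34.7 to 35.0 Mb, 23 at 36.2 to 37.8 Mb (ZNF565 to ZNF573), 17 at 43.5 to 44.5 Mb (ZNF575 to ZNF180), 36 at 51.6 to 53.6 Mb (ZNF175 to ZNF331), 13 at 55.5 to 56.7 Mb (ZNF628 to ZNF835) and 38 at 57.2 to 58.5 Mb (ZNF264 to ZNF446). A KRAB motif was found in the longest coding sequence of 174 of the 206 members, among them 26 of the 27 in the pericentromeric cluster and 4 of the 13 at 55.5 to 56.7 Mb. ZNF714 was the pericentromeric member without it.

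RefSeq windows (GRCh38.p14) from 250 bases before to 50 bases after a RefSeq start were found for 185 of the 206 members, 24 of them in the pericentromeric cluster. The window nearest to the GENCODE start of each gene was taken, with no limit on distance. Those of ZNF43 and ZNF329, printed below, lie inside the gene, away from its outermost start. Which start these cells use was not tested. The 10 bases shared by most of those 24 windows were TCCAATCAGG (CCTGATTGGA on the other strand), which contain the CCAAT box read by the factor NF-Y; they were picked as the most shared 10 bases, so their share in the cluster is a description. They stood in 23 of 24 windows (95.8%), in 13 of 161 windows of the other members (8.07%), and in 122 of 35116 windows of all genes (0.347%). CCAAT alone (ATTGG on the other strand) was in 24 of 24 pericentromeric windows, 47.2% of other members' windows and 34.6% of all windows. The 4 windows shown first belong to 3 members that were lower in the libraries labelled Kv1.5 than in RFP libraries (ZNF714, ZNF43 and ZNF726) and to the pericentromeric member that was higher in them (ZNF429), with the 10 bases in capitals.
ZNF714 promoter window, chr19:21081953-21082252, strand +: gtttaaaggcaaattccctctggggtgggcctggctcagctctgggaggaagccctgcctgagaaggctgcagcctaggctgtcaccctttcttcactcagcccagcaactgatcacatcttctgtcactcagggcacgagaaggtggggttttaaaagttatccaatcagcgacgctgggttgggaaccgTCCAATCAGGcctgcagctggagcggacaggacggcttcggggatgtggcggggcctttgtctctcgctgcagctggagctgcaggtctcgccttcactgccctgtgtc
ZNF43 promoter window, chr19:21836133-21836432, strand -: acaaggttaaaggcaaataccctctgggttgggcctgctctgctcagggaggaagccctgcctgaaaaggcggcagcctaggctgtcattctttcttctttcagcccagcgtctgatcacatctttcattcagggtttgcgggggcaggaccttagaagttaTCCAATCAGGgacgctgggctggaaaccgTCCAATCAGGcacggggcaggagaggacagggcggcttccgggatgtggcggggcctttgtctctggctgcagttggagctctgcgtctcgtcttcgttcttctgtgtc
ZNF726 promoter window, chr19:23914636-23914935, strand +: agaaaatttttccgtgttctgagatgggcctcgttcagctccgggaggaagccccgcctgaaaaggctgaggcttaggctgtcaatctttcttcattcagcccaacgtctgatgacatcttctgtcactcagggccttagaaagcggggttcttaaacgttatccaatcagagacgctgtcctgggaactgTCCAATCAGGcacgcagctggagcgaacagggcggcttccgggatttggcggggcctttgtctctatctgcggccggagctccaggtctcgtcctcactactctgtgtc
ZNF429 promoter window, chr19:21505352-21505651, strand +: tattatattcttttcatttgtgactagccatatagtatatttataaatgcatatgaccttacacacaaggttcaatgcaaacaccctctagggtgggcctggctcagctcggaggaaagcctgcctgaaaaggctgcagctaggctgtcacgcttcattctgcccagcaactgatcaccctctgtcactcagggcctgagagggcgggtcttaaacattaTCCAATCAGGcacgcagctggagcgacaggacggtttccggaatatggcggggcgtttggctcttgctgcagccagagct

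The same 10 bases were present in 11 of 20 windows of the 11.5 to 12.6 Mb cluster and in 2 of 4 windows of the small group at 2.8 to 2.9 Mb, and in no window of any other cluster. The window of ZNF433, the match-bearing member of the 11.5 to 12.6 Mb cluster with the largest called rise in the libraries labelled Kv1.5, is shown with the same 10 bases in capitals.
ZNF433 promoter window, chr19:12035630-12035929, strand -: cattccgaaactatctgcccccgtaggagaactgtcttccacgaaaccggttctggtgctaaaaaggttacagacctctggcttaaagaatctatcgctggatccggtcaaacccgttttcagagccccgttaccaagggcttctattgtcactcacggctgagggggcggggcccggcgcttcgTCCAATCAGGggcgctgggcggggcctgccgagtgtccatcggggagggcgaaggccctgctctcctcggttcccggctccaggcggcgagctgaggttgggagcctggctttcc

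Windows of the pericentromeric members also held few CG dinucleotides, with a median of 10 (range 8 to 18), against 22 (6 to 40) in the windows of other members and 14 (0 to 77) in all windows. For contrast, the windows of ZNF582 and ZNF329, long-arm members that were higher in the libraries labelled Kv1.5, held 30 and 28 CG dinucleotides, which are in capitals.
ZNF582 promoter window, chr19:56393485-56393784, strand -: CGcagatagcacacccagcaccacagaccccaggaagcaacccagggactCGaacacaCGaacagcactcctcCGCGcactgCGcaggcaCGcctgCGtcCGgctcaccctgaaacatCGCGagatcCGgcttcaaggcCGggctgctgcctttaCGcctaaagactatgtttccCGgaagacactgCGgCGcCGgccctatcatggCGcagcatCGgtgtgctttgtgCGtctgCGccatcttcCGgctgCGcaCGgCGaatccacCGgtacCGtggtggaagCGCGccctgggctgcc
ZNF329 promoter window, chr19:58150740-58151039, strand -: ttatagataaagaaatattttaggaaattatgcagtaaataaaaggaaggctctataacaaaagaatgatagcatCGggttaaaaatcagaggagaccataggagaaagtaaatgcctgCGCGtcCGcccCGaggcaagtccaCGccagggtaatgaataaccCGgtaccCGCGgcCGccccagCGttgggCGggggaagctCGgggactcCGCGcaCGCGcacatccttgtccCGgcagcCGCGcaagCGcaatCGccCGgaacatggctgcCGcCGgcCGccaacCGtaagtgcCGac

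A further feature of the family bears on every count. Finger repeats are alike between neighbours, and reads of 50 bases cannot always be given to the right gene. In 38 members over 10% of the 50-base stretches of the transcripts also occurred in another gene. The counts of these 38 are uncertain, and they include ZNF358, ZNF419, ZNF580 and ZNF90, named below. The closest pair of linked fingers of ZNF320 and ZNF468, both in the cluster from ZNF175 to ZNF331, differed at 3 of 84 bases, and the capitals mark the last 21 bases, which code for the linker between fingers and are identical.
ZNF320 finger repeat: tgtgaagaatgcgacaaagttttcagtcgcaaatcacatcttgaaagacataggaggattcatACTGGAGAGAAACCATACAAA
ZNF468 finger repeat: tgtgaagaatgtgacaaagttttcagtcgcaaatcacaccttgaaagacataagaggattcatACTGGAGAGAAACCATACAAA
These genes shared 75.2% (ZNF320) and 55.8% (ZNF468) of their 50-base stretches, so their counts are uncertain. Of the 206 members, 106 overlapped a gene on the opposite strand and 52 a coding gene on the same strand, and their counts are uncertain too, because no source used here states the strand setting of the counting.

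Levels were low for most members. Mean CPM ran from 1.04 (ZNF878) to 204.1 (ZNF146), with quartiles of 5.02, 8.56 and 14.4 CPM, against a median of 16.9 CPM over all genes tested. Per kb of the longest transcript, the 6 highest means were 54.0 CPM per kb for ZNF146, whose protein consists almost wholly of fingers, 21.5 for ZNF787, 18.4 for ZNF428, 13.7 for ZNF274, 13.6 for ZNF317 and 11.6 for ZNF581. The members' CPM summed to 2426, 2569 and 2455 in Kir2.1 libraries, 2978 and 3080 in the libraries labelled Kv1.5, and 2547, 2078 and 2317 in RFP libraries. Both sums labelled Kv1.5 were above those of the other 6 libraries.

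Against RFP cells, more members were higher than lower with either label, and the members that fell in the libraries labelled Kv1.5 lay almost all in the pericentromeric cluster. In Kir2.1 cells 18 members were higher and 4 lower, 10.7% of the members called, against 20.5% of all genes tested (12.2% higher and 8.26% lower). The median log2 fold change of the members was 0.20 in Kir2.1 against RFP, beside -0.01 over all genes. In the libraries labelled Kv1.5, 52 members were higher and 10 lower, 30.1% called against 33.7% of all genes (18.1% higher and 15.6% lower), with a median of 0.36 beside 0.02. Calls are at an adjusted p under 0.05 from the edgeR quasi-likelihood test, adjusted over all genes tested. The share called was below that of all genes in both comparisons, and calls of members leaned upward. The 10 lower members were 3 without Kv1.5 replicate 3, 5 without Kir2.1 replicate 2, RFP replicate 2 or RFP replicate 3, and 6 without Kir2.1 replicate 3, and the 52 higher were 28 without RFP replicate 2. The 4 lower in Kir2.1 were 2 without Kir2.1 replicate 1 and 9 without Kv1.5 replicate 2 or Kv1.5 replicate 3. Both comparisons use the same 3 RFP libraries. The groups did not overlap for 38.8% of members in Kir2.1 against RFP, beside 44.7% of all genes tested. With the Kv1.5 label these shares were 60.7% and 54.2% against RFP, and 55.8% and 47.7% against Kir2.1. Rises and falls named by rule had to be called and free of overlap, so the lack of overlap in them is a description. MKI67 was low in the libraries labelled Kv1.5 (319 and 67.7 CPM, against 1108, 1021 and 863 CPM with RFP), its part in the members' values was not tested, and fewer cells of a type cannot be told apart from less RNA per cell in bulk libraries.

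Other coding genes of the chromosome leaned upward as well. The other 742 tested coding genes of chromosome 19 had 185 higher and 36 lower in Kir2.1 against RFP (median 0.32), and 191 higher and 97 lower in the libraries labelled Kv1.5 (median 0.28). The 233 tested coding ZNF genes of other chromosomes had 22 higher and 24 lower in Kir2.1 (median -0.06), and 43 higher and 25 lower with the Kv1.5 label (median 0.06). RFP replicate 2 was the library with the lowest member levels, its median deviation being -0.31 on the log2 scale. Without it, the members' median was 0.10 in Kir2.1 and 0.27 with the Kv1.5 label.

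In the pericentromeric cluster calls leaned downward with the Kv1.5 label. Of 27 members, 9 fell (33.3%, beside 15.6% of all genes tested), 1 rose and 17 were not called. The level of 1 CPM left out ZNF98 and ZNF492 of this cluster, which were called higher in the same comparison (values below). Of the 27 fitted values, 21 were below 0 (median -0.63). The other 179 members had 51 higher (28.5%, beside 18.1% of all genes) and 1 lower in the same comparison (median 0.43). In Kir2.1 cells the pericentromeric members had 2 lower (7.41%, near the 8.26% of all genes) and 1 higher (median -0.33, again 21 of 27 below 0). The other 179 had 17 higher (9.5%, beside 12.2% of all genes) and 2 lower (median 0.24). These counts describe the clusters, and the difference between clusters was not tested. The cluster median stayed below 0 under each of the 16 alternative fits, between -0.71 and -0.42 with the Kv1.5 label and between -0.45 and -0.14 in Kir2.1, the weakest being without RFP replicate 3 in both. The count of 9 was 2 without Kv1.5 replicate 3, 4 without Kir2.1 replicate 2, Kv1.5 replicate 2, RFP replicate 2 or RFP replicate 3, and 5 without Kir2.1 replicate 3. The 1 lower member outside the cluster became 4 without Kv1.5 replicate 2, and the 51 higher became 28 without RFP replicate 2. In Kir2.1, the 2 lower in the cluster were 3 without Kv1.5 replicate 2 or 3 and 1 when any other library was left out, and the 2 lower outside it were 1 without Kir2.1 replicate 1 and 6 without Kv1.5 replicate 2 or 3.

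ZNF714 (chr19:21082159-21125270, strand +, GRCh38 as in GENCODE 29) had 7.88 and 8.11 CPM in libraries labelled Kv1.5 and 23.7, 26.8 and 25.3 CPM in RFP libraries. Kir2.1 libraries were split, with 9.12 CPM in replicate 1 and 18.3 and 19.2 CPM in replicates 2 and 3. The groups labelled Kv1.5 and RFP did not overlap, and ZNF714 was 3.16-fold lower (log2 fold change -1.66 ± 0.31 SE, adjusted p = 0.00167). ZNF726 (chr19:23914876-23945159, strand +) had the largest fitted fall of the cluster in either comparison and was lower in all 5 Kir2.1 and Kv1.5-labelled libraries than in any RFP library. It had 1.13, 0.757 and 0.977 CPM in Kir2.1 libraries, 0.796 and 0.764 CPM in libraries labelled Kv1.5, and 2.39, 3.28 and 2.42 CPM in RFP libraries. ZNF726 had means under 1 CPM in Kir2.1 and with the Kv1.5 label. It was thus a member only through its RFP level, which favours a fall. Its log2 fold change was -1.50 ± 0.32 in Kir2.1 (adjusted p = 0.0056) and -1.79 ± 0.37 with the Kv1.5 label (adjusted p = 0.00317).

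ZNF43 (chr19:21804949-21852125, strand -) was lower with the Kv1.5 label than in both other groups. Its level was 5.42 and 3.24 CPM in libraries labelled Kv1.5, 9.73, 11.1 and 12.6 CPM in Kir2.1 libraries, and 8.76, 8.32 and 11.1 CPM in RFP libraries. Both Kv1.5-labelled values were below all 6 others, with a log2 fold change of -1.12 ± 0.29 against RFP (adjusted p = 0.0117) and -1.36 ± 0.29 against Kir2.1 (adjusted p = 0.00964). Both calls were lost without Kv1.5 replicate 3, with fitted changes of -0.79 and -1.04. ZNF100, ZNF254, ZNF66, ZNF253, ZNF90 and ZNF101 fell by less in the libraries labelled Kv1.5, with log2 fold changes of -0.88, -1.03, -1.01, -0.94, -0.70 and -0.61. These calls were near the threshold and each was lost under 3 to 11 of the 16 alternatives.

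ZNF429 was the 1 member of the cluster called higher, and its RFP mean was under 1 CPM, so it was a member through the other groups. It had 1.39, 2.40 and 2.54 CPM in Kir2.1 libraries, 2.41 and 1.53 CPM in libraries labelled Kv1.5, and 0.549, 0.998 and 1.06 CPM in RFP libraries. The Kir2.1 and Kv1.5-labelled libraries were all above the 3 RFP libraries, with log2 fold changes of 1.28 ± 0.38 in Kir2.1 (adjusted p = 0.0326) and 1.18 ± 0.42 with the Kv1.5 label (adjusted p = 0.0447). With the Kv1.5 label 1 member of the cluster was higher when Kir2.1 replicate 1 or Kv1.5 replicate 3 was left out and 0 when any other library was, and in Kir2.1 0 were higher without Kir2.1 replicate 2, Kir2.1 replicate 3, RFP replicate 1 or RFP replicate 2. A pair of primate repressors of retrotransposons sits in this cluster, and neither was called. ZNF91, which binds SVA elements, had 8.55 and 11.4 CPM with the Kv1.5 label and 9.57, 8.48 and 14.6 CPM with RFP, and these ranges overlapped. ZNF93, which binds LINE-1 elements, had 6.08 and 6.50 CPM with the Kv1.5 label and 9.96, 7.25 and 12.8 CPM with RFP, without overlap, at a log2 fold change of -0.67 ± 0.28 (adjusted p = 0.0848).

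Among members that carry the shared promoter bases, the median differed in sign between clusters, with single members on the other side of 0 in each. Of the 23 pericentromeric members with the 10 bases, 8 fell and 1 rose in the libraries labelled Kv1.5 (median -0.67), and 2 fell and 1 rose in Kir2.1 (median -0.32). Of the 11 members of the 11.5 to 12.6 Mb cluster with the same bases, 2 rose and none fell (median 0.48), and of the 9 there without them 3 rose and none fell (median 0.56). In Kir2.1 none of those 11 was called (median 0.11), and of the 9 without the bases 1 rose (median 0.30). Over all genes tested, 18.1% were higher and 15.6% lower with the Kv1.5 label, and 12.2% and 8.26% in Kir2.1. ZNF433, whose window is printed above, had 9.73 and 5.56 CPM in libraries labelled Kv1.5 and 3.70, 3.20 and 2.96 CPM in RFP libraries, a log2 fold change of 1.21 (adjusted p = 0.0108).

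The largest fitted rises against RFP were in members called higher with both labels. The calls were the same in direction for 13 members higher and 2 lower in both comparisons with RFP, and no member was called in opposite directions. Since both comparisons use the same RFP libraries, their calls are not independent. A further 5 members were higher and 2 lower in Kir2.1 with no call for the Kv1.5 label, and 39 were higher and 8 lower with the Kv1.5 label with no call in Kir2.1. ZNF114, a KRAB gene with 3 fingers (chr19:48270102-48287608, strand +), had 30.1, 36.0 and 20.7 CPM in Kir2.1 libraries, 24.1 and 23.5 CPM in libraries labelled Kv1.5, and 7.93, 4.54 and 3.77 CPM in RFP libraries. It was 5.33-fold higher in Kir2.1 (log2 fold change 2.41 ± 0.30, adjusted p = 0.000171) and 4.38-fold higher with the Kv1.5 label (2.13 ± 0.32, adjusted p = 0.000409), with no overlap between either group and RFP.

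ZNF329 (chr19:58126252-58155110, strand -), of the cluster at 57.2 to 58.5 Mb, had 9.73, 12.4 and 11.4 CPM in Kir2.1 libraries, 13.7 and 12.6 CPM in libraries labelled Kv1.5, and 2.56, 2.63 and 3.22 CPM in RFP libraries. Every Kir2.1 and Kv1.5-labelled value stood above the RFP range. Its log2 fold changes were 2.00 ± 0.23 in Kir2.1 (adjusted p = 8.6e-05) and 2.23 ± 0.24 with the Kv1.5 label (adjusted p = 4.77e-05), and the difference between Kv1.5-labelled and Kir2.1 libraries was 0.23 ± 0.24 (adjusted p = 0.536). ZNF175, known in macrophages as a repressor of HIV-1 transcription (chr19:51571298-51592508, strand +), had 29.8, 34.2 and 30.7 CPM in Kir2.1 libraries, 25 and 28 CPM in libraries labelled Kv1.5, and 9.98, 9.45 and 10.8 CPM in RFP libraries. It was 3.13-fold higher in Kir2.1 (adjusted p = 7.58e-05) and 2.62-fold higher with the Kv1.5 label (adjusted p = 0.000287).

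ZNF577 and ZNF649, which overlap on the same strand at 51.6 to 53.6 Mb and so may share reads, rose together. ZNF577 had 4.27, 4.19 and 3.29 CPM in Kir2.1 libraries, 3.65 and 4.74 CPM in libraries labelled Kv1.5, and 1.10, 0.473 and 0.777 CPM in RFP libraries. With an RFP mean under 1 CPM, it was a member through the other groups, which favours a rise. Its log2 fold changes were 2.31 ± 0.34 in Kir2.1 (adjusted p = 0.000605) and 2.41 ± 0.37 with the Kv1.5 label (adjusted p = 0.000444). For ZNF649 the values were 5.82, 5.32 and 5.86 CPM in Kir2.1 libraries, 6.16 and 9.09 CPM in libraries labelled Kv1.5, and 2.00, 1.81 and 1.67 CPM in RFP libraries. No Kir2.1 or Kv1.5-labelled value of either gene reached down to the RFP range. ZNF358 (which overlaps a readthrough gene), ZNF563 and ZNF846 were also higher in both, with log2 fold changes of 1.41, 1.02 and 1.15 in Kir2.1 and 1.35, 1.69 and 1.73 with the Kv1.5 label.

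Calls in Kir2.1 cells were unevenly spread over classes of finger count, though the difference between classes was not tested. Fingers were counted by a fixed spacing of cysteines and histidines. Fingers with other spacing were missed, and the lowest count was 0, so these are not full array lengths. Over all genes tested, 12.2% were higher in Kir2.1 and 18.1% with the Kv1.5 label. Of the 10 members with at most 3 fingers, 6 were higher (60.0%) and none lower in Kir2.1 (median 0.86). These 6 include ZNF580, which overlaps ZNF581 and has over 10% of its 50-base stretches in another gene. Its counts, and so the 6, are uncertain. Of 83 with 4 to 11 fingers, 8 were higher (9.64%) and none lower (median 0.17). Of 113 with 12 or more, 4 were higher (3.54%) and 4 lower (median 0.18). Members without a KRAB motif had 7 higher of 32 (21.9%) in Kir2.1, and members with it had 11 higher (6.32%) and 4 lower of 174. With the Kv1.5 label the order of the finger classes was not kept, with 3 of 10 (30.0%), 29 of 83 (34.9%) and 20 of 113 (17.7%) higher. ZNF580, with 3 fingers, had 31.1, 20.9 and 18.3 CPM in Kir2.1 libraries, 12.9 and 11.2 CPM in libraries labelled Kv1.5, and 11.3, 9.27 and 8.72 CPM in RFP libraries. It was 2.40-fold higher in Kir2.1 than RFP (log2 fold change 1.26 ± 0.24, adjusted p = 0.00294), and its Kv1.5-labelled level was lower than the Kir2.1 level (-0.96 ± 0.27, adjusted p = 0.0314), a call lost under 5 of 16 alternatives.

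The neighbour ZNF581, which overlaps ZNF580, had 20.4, 14.1 and 12.1 CPM in Kir2.1 libraries, 20.1 and 30.9 CPM in libraries labelled Kv1.5, and 9.45, 8.85 and 6.39 CPM in RFP libraries. It was higher than RFP with the Kv1.5 label (log2 fold change 1.63 ± 0.29, adjusted p = 0.00126) and in Kir2.1 (0.92 ± 0.27, adjusted p = 0.0291, lost under 4 of 16 alternatives). The Kv1.5-labelled and Kir2.1 ranges overlapped, and that difference was not called (0.71 ± 0.29, adjusted p = 0.11). ZNF524 and ZNF428, with 3 fingers and 1 finger by that count, were higher in Kir2.1 by 1.22 ± 0.24 and 0.90 ± 0.22 on the log2 scale (adjusted p = 0.00398 and 0.0127).

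The 4 members lower in Kir2.1 than in RFP were ZNF726 and ZNF90 of the pericentromeric cluster, ZNF699 and ZNF567. The call of ZNF90 was lost under 8 of 16 alternatives, and that of ZNF699 without Kir2.1 replicate 1 (adjusted p = 0.0506). ZNF567 had 8.11, 9.48 and 10.6 CPM in Kir2.1 libraries, 14.9 and 16.5 CPM in libraries labelled Kv1.5, and 19.8, 16.6 and 18.3 CPM in RFP libraries. The Kir2.1 libraries were the lowest of all, at -0.95 ± 0.20 against RFP (adjusted p = 0.00557), and the level with the Kv1.5 label was higher than in Kir2.1 (0.74 ± 0.22, adjusted p = 0.0386, lost under 8 of 16 alternatives). ZNF699 had 7.43, 10.1 and 12 CPM in Kir2.1 libraries, 18 and 11.3 CPM in libraries labelled Kv1.5, and 28.6, 18.8 and 19.1 CPM in RFP libraries, a log2 fold change of -1.17 ± 0.27 in Kir2.1 (adjusted p = 0.00929).

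Comparing these labels directly, 21 members were higher and 4 lower in the libraries labelled Kv1.5 than in Kir2.1 libraries, 12.1% called against 16.8% of all genes (8.79% higher and 7.99% lower), with a median log2 fold change of 0.17 beside 0.01. Of the 21, 4 each lay in the clusters at 8.5 to 9.8 Mb and at 36.2 to 37.8 Mb, 5 in that at 57.2 to 58.5 Mb and none in the pericentromeric cluster. The other coding genes of chromosome 19 had 56 higher and 75 lower in this comparison (median -0.14). The 21 became 5 without Kir2.1 replicate 2, 7 without Kir2.1 replicate 3, and 10 without Kir2.1 replicate 1 or without Kv1.5 replicate 3. The 4 became 10 without Kv1.5 replicate 2, 1 without Kv1.5 replicate 3, and 2 without Kir2.1 replicate 2 or RFP replicate 2.

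ZNF582, a gene whose promoter methylation is used as a marker in cervical cancer (chr19:56375846-56393545, strand -), had 6.32 and 5.21 CPM in libraries labelled Kv1.5, 1.23, 1.38 and 1.34 CPM in Kir2.1 libraries, and 2.00, 1.42 and 0.835 CPM in RFP libraries. It was 4.37-fold higher with the Kv1.5 label than in Kir2.1 (log2 fold change 2.13 ± 0.36, adjusted p = 0.00279) and 4.04-fold higher than in RFP (2.01 ± 0.36, adjusted p = 0.00131). ZNF460 (chr19:57280051-57293569, strand +) had 3.54 and 8.90 CPM in libraries labelled Kv1.5, 0.970, 1.30 and 1.51 CPM in Kir2.1 libraries, and 1.67, 1.39 and 1.27 CPM in RFP libraries. For both genes the 2 libraries labelled Kv1.5 lay above the other 6, and ZNF460 was unequal between them. Against RFP its log2 fold change of 2.1 was 1.29 without Kv1.5 replicate 3 and 2.62 without Kv1.5 replicate 2.

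ZNF274, which binds the finger-coding ends of other zinc finger genes and brings SETDB1 to them (chr19:58183029-58213562, strand +), had 113 and 84.8 CPM in libraries labelled Kv1.5, 62.7, 62.1 and 64.3 CPM in Kir2.1 libraries, and 53.0, 48.8 and 42.8 CPM in RFP libraries. The groups did not overlap, in that order from high to low. With the Kv1.5 label it was 2.05-fold higher than in RFP (log2 fold change 1.04 ± 0.19, adjusted p = 0.00162) and 1.57-fold higher than in Kir2.1 (0.65 ± 0.19, adjusted p = 0.038, lost under 7 of 16 alternatives), while Kir2.1 against RFP was not called (0.39 ± 0.17, adjusted p = 0.136). ZNF558, which represses the mitochondrial gene SPATA18 in human neural progenitors, had 52.4 and 46.4 CPM with the Kv1.5 label, 13.2, 19.2 and 24.4 CPM in Kir2.1 and 14.8, 18.8 and 20.6 CPM in RFP. Only the Kv1.5-labelled group stood apart, at 1.45 ± 0.26 against RFP (adjusted p = 0.00129).

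ZNF571 and ZNF419 were also higher, with log2 fold changes of 1.28 ± 0.28 and 1.12 ± 0.24 with the Kv1.5 label against Kir2.1 (adjusted p = 0.0102 and 0.00911). ZNF571 overlaps ZNF571-AS1 and ZNF540 on the opposite strand. ZNF844 and ZNF441 of the 11.5 to 12.6 Mb cluster were higher by 1.14 and 1.05 in the same comparison (adjusted p = 0.0275 and 0.016), each lost under 3 of 16 alternatives. ZNF146 had 246 and 346 CPM in libraries labelled Kv1.5, 144, 164 and 125 CPM in Kir2.1 libraries, and 259, 158 and 189.9 CPM in RFP libraries. The Kv1.5-labelled and Kir2.1 groups were apart (1.03 ± 0.24, adjusted p = 0.0139), whereas the RFP libraries overlapped both. That call was lost without Kir2.1 replicate 3 or Kv1.5 replicate 3.

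ZNF610 (chr19:52336245-52367778, strand +) was nearly absent from the libraries labelled Kv1.5. It had 0.0513 and 0 CPM there, 0.905, 0.946 and 0.977 CPM in Kir2.1 libraries, and 1.41, 1.44 and 2.73 CPM in RFP libraries. ZNF610 was thus a member only through its RFP level, which favours a fall. Summed over libraries, 2 counts with the Kv1.5 label stood against 209 with RFP, 70.1 times lower (95% interval 19.2 to 582.5, exact and covering counting error only), and against 98 in Kir2.1, 36.3 times lower (9.79 to 304.1). It was the single member outside the pericentromeric cluster that was lower with the Kv1.5 label (adjusted p = 0.000116), and its Kir2.1 value against RFP was not called (-0.98 ± 0.41, adjusted p = 0.111). Its fitted log2 fold change with the Kv1.5 label, -5.99, depends on how near-zero counts are handled and ran from -9.09 to -5.09 over the alternatives.

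**Figure D1:**
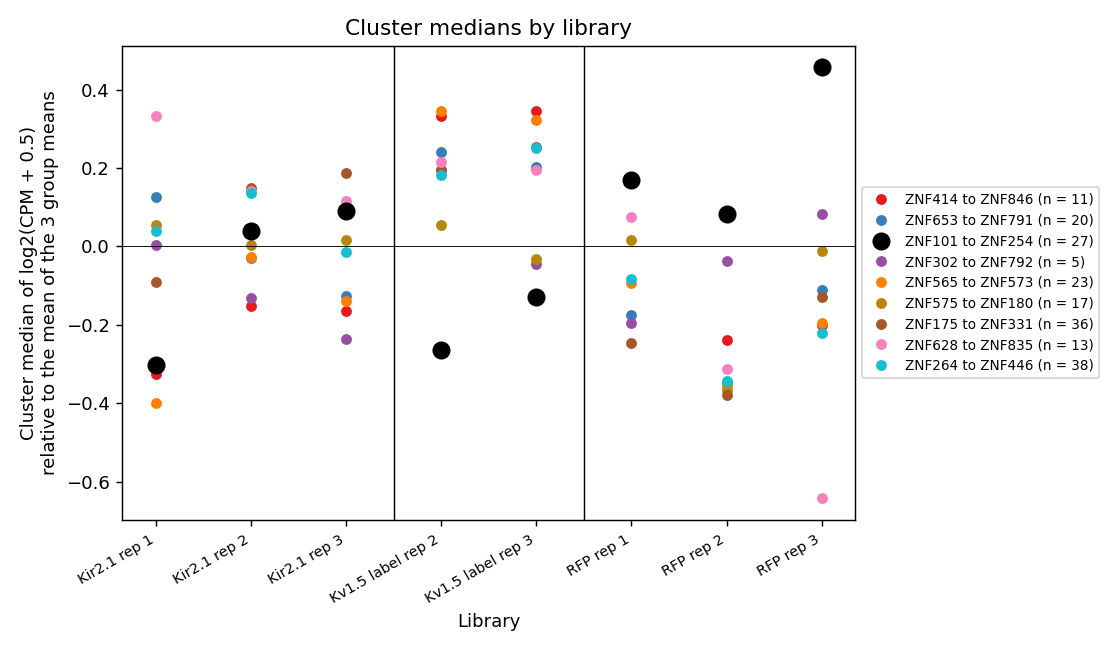
Each point is the median over a cluster's members of log2(CPM + 0.5) relative to the mean of the 3 group means, for each library. The pericentromeric cluster (black) is at -0.30, 0.04 and 0.09 in Kir2.1 libraries, -0.26 and -0.13 in the libraries labelled Kv1.5, and 0.17, 0.08 and 0.46 in RFP libraries, so that Kir2.1 overlaps RFP, whereas RFP replicate 2 is the lowest library for the clusters ZNF653 to ZNF791, ZNF575 to ZNF180, ZNF175 to ZNF331 and ZNF264 to ZNF446.

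Over all genes tested, 18.1% were higher with the Kv1.5 label and 12.2% in Kir2.1. Along the rest of the chromosome, the cluster at 36.2 to 37.8 Mb had 9 of 23 members higher (39.1%) and none lower with the Kv1.5 label (median 0.59). In Kir2.1 it had none higher and 1 lower (median 0.17). ZNF568, whose mouse counterpart represses a placental Igf2 transcript, lies there and had 9.73 and 10.8 CPM with the Kv1.5 label, 5.79, 6.35 and 5.94 CPM in Kir2.1 and 5.18, 3.73 and 4.26 CPM in RFP. All 3 groups were apart for ZNF568, and its log2 fold change against RFP was 1.23 ± 0.25 (adjusted p = 0.00292). The largest clusters of the long arm have 36 and 38 members. With the Kv1.5 label they had 12 higher (33.3%) and 1 lower (median 0.52), and 10 higher (26.3%) and none lower (median 0.36). In Kir2.1 they had 4 and 5 higher (11.1% and 13.2%, near the share of all genes) and none lower. ZNF350, a partner of BRCA1 in repression, had 16.2 and 13.9 CPM with the Kv1.5 label, 8.63, 8.11 and 7.51 CPM in Kir2.1 and 6.90, 4.94 and 7.51 CPM in RFP, a log2 fold change of 1.22 ± 0.25 against RFP (adjusted p = 0.003). ZNF568, ZNF350, ZNF429, ZNF433, ZNF91 and ZNF93 fell outside the rule for named genes and were chosen with their values in view.

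In the cluster at 11.5 to 12.6 Mb, 5 of 20 were higher with the Kv1.5 label (median 0.52) and 1 in Kir2.1 (ZNF563). At 8.5 to 9.8 Mb, 3 of 11 (27.3%) were higher with the Kv1.5 label (median 0.40), and 1 was higher and 1 lower in Kir2.1 (median -0.15). The cluster at 43.5 to 44.5 Mb had 4 of 17 (23.5%) higher with the Kv1.5 label (median 0.19), led by ZNF235 at 1.14 ± 0.30 (adjusted p = 0.0121), and 1 in Kir2.1. At 55.5 to 56.7 Mb, 4 of 13 (30.8%) were higher with the Kv1.5 label and 3 (23.1%) in Kir2.1, with medians of 0.43 and 0.47. The 5 members at 34.7 to 35.0 Mb had no call in either comparison with RFP.

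Coding ZNF genes of the chromosome that missed the level of 1 CPM numbered 43, of which 8 had 0 counts and 11 were tested. Among them ZNF132 had 42, 63 and 72 counts in Kir2.1 libraries, 84 and 29 counts in libraries labelled Kv1.5, and 0 counts in all 3 RFP libraries. In the pericentromeric cluster, ZNF98 had 28 and 40 counts in libraries labelled Kv1.5, 1, 1 and 1 counts in Kir2.1 libraries, and 0 counts in RFP libraries, and ZNF492 had 15 and 35 counts with the Kv1.5 label, 2, 0 and 2 in Kir2.1, and 0 with RFP. ZNF98 and ZNF492 were called higher with the Kv1.5 label than with RFP (adjusted p = 0.000133 and 0.00105), and ZNF132 in both comparisons with RFP (adjusted p = 0.000111 in Kir2.1 and 0.000121 with the Kv1.5 label). These 3 genes were picked after their values were seen.

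Among 41 genes for partners of KRAB zinc finger proteins, calls were about as frequent as over all genes. The core pair was not called, and the genes of 2 heterochromatin proteins were lower in Kir2.1 and in the libraries labelled Kv1.5. In Kir2.1 against RFP 3 were higher and 4 lower (median -0.11), with the Kv1.5 label 4 higher and 9 lower (median -0.30), and with the Kv1.5 label against Kir2.1 1 higher and 6 lower (median -0.08), beside 20.5%, 33.7% and 16.8% of all genes called. The share of partner genes called was near that background in each comparison. TRIM28 had 619.9, 498 and 467 CPM in Kir2.1 libraries, 320.2 and 339 CPM in libraries labelled Kv1.5, and 522, 416 and 283 CPM in RFP libraries, with adjusted p = 0.258 and 0.384 against RFP, and SETDB1 had adjusted p = 0.702 and 0.796. CBX5, which encodes HP1 alpha, had 90.5, 111 and 115 CPM in Kir2.1 libraries, 30.1 and 39.3 CPM in libraries labelled Kv1.5, and 235, 279.5 and 256 CPM in RFP libraries. The 3 groups did not overlap, and CBX5 fell by 1.28 ± 0.18 in Kir2.1 (adjusted p = 0.000435) and by 2.89 ± 0.23 with the Kv1.5 label (adjusted p = 3.52e-06) on the log2 scale. CBX3, which encodes HP1 gamma, fell by 0.62 ± 0.18 in Kir2.1 (adjusted p = 0.0331) and by 0.60 ± 0.21 with the Kv1.5 label (adjusted p = 0.042), while the paralog CBX1 was not called (adjusted p = 0.0578 and 0.0612).

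PPHLN1, a subunit of the HUSH silencing complex, fell by 0.88 ± 0.16 in Kir2.1 (adjusted p = 0.00232) and by 1.30 ± 0.19 with the Kv1.5 label (adjusted p = 0.0003). MPHOSPH8 and TASOR, of the same complex, were not called in Kir2.1 against RFP (0.26 and -0.31), nor was MPHOSPH8 with the Kv1.5 label (-0.37). UHRF1, which guides the maintenance DNA methyltransferase DNMT1 to replicated DNA, had 15 and 27 CPM in libraries labelled Kv1.5, 64.8, 81.5 and 76.5 CPM in Kir2.1 libraries, and 125, 109.7 and 79.9 CPM in RFP libraries, a log2 fold change of -2.32 ± 0.29 for the Kv1.5 label against RFP (adjusted p = 0.000122). The de novo methyltransferase genes DNMT3A and DNMT3B fell by 0.84 and 1.27 with the Kv1.5 label, and DNMT3A by 1.31 in Kir2.1. MORC3, a chromatin ATPase, rose by 1.29 ± 0.25 with the Kv1.5 label (adjusted p = 0.00235), as did TRIM39 by 1.10 ± 0.26 (adjusted p = 0.00685). RBBP7, a histone-binding subunit of NuRD, rose by 0.70 ± 0.16 in Kir2.1 (adjusted p = 0.0105) and by 0.61 ± 0.18 with the Kv1.5 label (adjusted p = 0.0216). The NuRD genes HDAC1, HDAC2, RBBP4, MTA1, MTA2, MTA3, MBD3, GATAD2A, GATAD2B and CHD4 were not called against RFP with either label. KDM4A was also higher, and CHD3, TASOR and DNMT1 lower, with the Kv1.5 label than with RFP, and TRIM24 and MPHOSPH8 were lower with it than in Kir2.1. UHRF1 and CBX5 were lowest in the libraries labelled Kv1.5, where MKI67 was lowest too, and the part of MKI67 in this was not tested. EHMT2 and SUV39H1, which methylate histone H3 at lysine 9, were higher in Kir2.1 than RFP by 0.70 and 0.76, and lower with the Kv1.5 label than in Kir2.1, with log2 fold changes of -1.03 and -1.2.

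The authors' deposited tables of the comparisons with RFP listed 9 members for Kir2.1 (8 higher and 1 lower) and 24 members for the Kv1.5 label (21 higher and 3 lower). All were in the direction found here, and since both rest on the same counts this is no separate evidence.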

How the data were processed

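RNA-seq of 8 libraries (3 Kir2.1, 2 labelled Kv1.5, 3 RFP) was analysed. The authors deposited raw counts per Ensembl gene for each library, and the submitters' processing notes name FastQC, Trimmomatic, STAR, edgeR and the build GRCh38, without versions; the counting step and annotation release are not stated in the sources used here. The authors' deposited tables also give log2 fold changes and FDR-adjusted p-values for the comparisons with RFP, listing only some genes, and were used only to set directions side by side.

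From the deposited counts, 3 comparisons were fitted with edgeR 4.0.16 (R 4.3.3): filterByExpr, TMM factors and the robust quasi-likelihood F-test on all 8 libraries by group (5 residual degrees of freedom), with Benjamini-Hochberg adjustment over 16687 genes and a threshold of 0.05. The level of 1 CPM was read on counts scaled to each library's table total; every other CPM is scaled to the TMM-adjusted total of the genes tested. Library totals were 30970235 to 42753422, and intervals on count ratios cover counting error only. Of 60715 IDs, 58453 matched GENCODE 29, which gave coordinates. KRAB and finger motifs were searched in translated coding sequences by fixed patterns, which can miss divergent copies. Shared stretches were 50 bases long. Promoter windows came from RefSeq. Scripts were tested on simulated data.

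Named genes were, per comparison, up to 8 rises and 8 falls among called members averaging 2 CPM or more whose groups did not overlap, the most changed called member per cluster and comparison, the 6 highest per kb, the genes around the 1 CPM level, and up to 6 called partner genes per comparison; further partner genes are named beside them. Members and lists were chosen with earlier results of these data known. Alternatives included DESeq2 1.42.0 and limma 3.58.1 (voom). Kv1.5 replicate 1 was not analysed here.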

Additional observations from a re-analysis of the deposited data

How the results depend on the processing

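For the 206 members, an adjusted p under 0.01 gave 11 higher in Kir2.1, 25 higher and 3 lower with the Kv1.5 label, and 4 higher and 2 lower with the Kv1.5 label against Kir2.1. Members lower in Kir2.1 than RFP numbered 7 with RLE factors, 12 with DESeq2 and 11 with only the 2 groups compared, in place of 4. Members lower with the Kv1.5 label than RFP numbered 5 with only the 2 groups compared and 6 among members with a mean of at least 5 CPM, in place of 10. DESeq2 gave 32 higher and 7 lower with the Kv1.5 label against Kir2.1, in place of 21 and 4. The counts split by cluster were added after seeing the data. In the pericentromeric cluster, with the Kv1.5 label against RFP, 0 were higher and 4 lower with only the 2 groups compared, 0 higher and 2 lower at an adjusted p under 0.01, and outside it 25 were higher at that threshold and 2 lower with DESeq2. The cause of these shifts was not tested.

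Leaving out each library in turn gave 2 to 9 lower and a median of 0.10 to 0.24 in Kir2.1 against RFP. With the Kv1.5 label against RFP it gave 28 to 50 higher, 3 to 9 lower and a median of 0.27 to 0.41; in the pericentromeric cluster 0 to 1 higher and 2 to 8 lower; outside it 28 to 49 higher and 1 to 4 lower. With the Kv1.5 label against Kir2.1 it gave 5 to 22 higher and 1 to 10 lower. Of 58 called values of named members, 33 kept their call under all of up to 16 alternatives, and 0 reversed.

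Deviations of same-numbered libraries from their group means correlated at -0.111 to 0.181. With 2 or 3 libraries per group, such deviations are tied to each other, so these values cannot settle if replicate numbers pair the libraries. With the replicate block, 20 members were higher and 5 lower in Kir2.1, 50 higher and 8 lower with the Kv1.5 label, and 18 higher and 4 lower between them, and in the pericentromeric cluster 0 were higher and 7 lower with the Kv1.5 label. Replicates 1 and 3 of Kir2.1 and RFP correlated best with their own number (0.181 and 0.157), and replicate 2 did not (-0.0938). Each group had 2 or 3 libraries, and the median member level was 8.56 CPM.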
